A study of Mus musculus with 4 samples.

Results

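The genes described here encode the protein subunits of the spliceosome together with the SR and hnRNP families of splicing regulators. They were taken by symbol from the deposited count table: the SR protein genes (Srsf followed by a number), the SF3a and SF3b subunits (Sf3a and Sf3b), the snRNP proteins (Snrpa to Snrpg and Snrnp followed by a number), the hnRNP genes, the Prpf genes and the U2af genes. The pattern took 77 of the 55453 genes in the table. Of these, 74 had enough counts to be tested. The question put to them was whether a difference in Sf3b6, which earlier results of the same data had picked out, was shared by the complex that Sf3b6 belongs to. Sf3b6 was therefore known to be high in the knockdown libraries when these genes were chosen, and its own value is given as a description rather than as independent support.

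The study compared messenger RNA of mouse germinal vesicle oocytes, the fully grown stage held in meiotic prophase before maturation, with and without knockdown of Parp12. Parp12 encodes an enzyme that attaches ADP-ribose to proteins. Control oocytes carry the genotype label WT and the others the label of a Parp12 knockdown, with 2 libraries in each group. All oocytes came from the ovary and are labelled as separated directly from it. The strain and age of the mice and the way the knockdown was made are unstated in the sources used here. Nothing in the labels says that the libraries of a group were collected from different animals, and p-values therefore reflect only how far these libraries differ, which may be technical.

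Splicing removes introns from pre-mRNA in steps that small nuclear ribonucleoprotein particles (snRNPs) carry out. The U1 particle marks the start of an intron, U2AF recognises its end, and the U2 particle, through its SF3a and SF3b complexes, binds the branch site whose adenosine begins the reaction. The tri-snRNP then joins, the Prp19 complex helps to activate the catalytic core, and SR and hnRNP proteins bias which sites are chosen. Fully grown germinal vesicle oocytes are largely silent in transcription and store the messenger RNA made during growth, so a level measured in them is mainly a level of stored message.

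Depth ran from 35805122 to 45230773 counts a library, with 16598 to 17197 genes detected. Parp12 itself had 14279 and 9419 counts in the controls against 32 and 86 in the knockdowns, which was 272.9 ± 60.5 against 1.58 ± 1.17 counts per 1e+06 counts of the library (CPM, mean ± SD, n = 2). That is a log2 fold change of -7.51 with an adjusted p of 1.27e-07 in edgeR's quasi-likelihood test with Benjamini-Hochberg adjustment over 15868 tested genes. All 12 listed oocyte markers had counts, with sums of 23408 and 24147 CPM in control and 24859 and 25430 CPM in knockdown libraries. The 12 granulosa and cumulus cell markers summed to 140.3 and 146.0 CPM in control and to 119.3 and 141.9 CPM in knockdown libraries, and Amh, Foxl2, Inhba, Fst and Amhr2 were at 0, while Nr5a2 gave 90.8 to 117.4 CPM. The 8 theca and stroma markers summed to between 2.37 and 6.45 CPM with Col1a2 at 0, and the 6 blood and endothelium markers to between 94.0 and 102.4 CPM with Cdh5 at 0, of which Pecam1 gave 91.6 to 101.3 CPM. The nuclear ribosomal RNA gene CT010467.1 took 0.0410% to 0.0885% of the counts, and other ribosomal RNA was not summed. Mitochondrially encoded mRNA took 0.255% to 0.343% and was higher in both knockdown libraries. The part of these sums in the member values was not tested.

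As a whole, the splicing genes had nearly the same level in both groups. Together the 77 members gave 7118 and 7092 CPM in control and 7219 and 6970 CPM in knockdown libraries, or 0.697% to 0.722% of all counts. In bulk libraries, fewer cells of a type and less RNA per cell cannot be told apart. By edgeR's quasi-likelihood test, 0 of the 74 tested members passed an adjusted p of 0.05, where 0.0063% of all tested genes did, namely Parp12 alone. At an unadjusted p of 0.05, 2 members were higher in the knockdowns (Sf3b6 and Hnrnpab), against a background of 2.94%, and 2 were lower (Sf3a2 and Hnrnpa1), against 2.57%. Both knockdown libraries lay above both controls for 12 members, where 18.0% of all tested genes did so, and below both controls for 14, where 16.8% did so. In the remaining 48 the groups overlapped. The median log2 fold change was -0.02 over the tested members and 0.00 over all tested genes.

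The precision was high enough to bound most of these genes. The 95% interval of the log2 fold change lay within a 2-fold change in either direction for 61 of the 74 tested members, where it did for 46.7% of all tested genes. All 61 were among the 66 members with a mean of at least 10 CPM. At that level the share was 87.0% of all tested genes. A narrower line of 1.5-fold was excluded for 46 members, where it was for 28.8% of all tested genes and 54.2% of those at 10 CPM or more. The count test DESeq2, used as an alternative, called 2 members, Sf3b6 (adjusted p = 0.0110) and Hnrnpab (adjusted p = 0.0363), both higher in the knockdowns. It called 1.12% of 16048 genes higher and 0.823% lower.

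**Figure D1:**
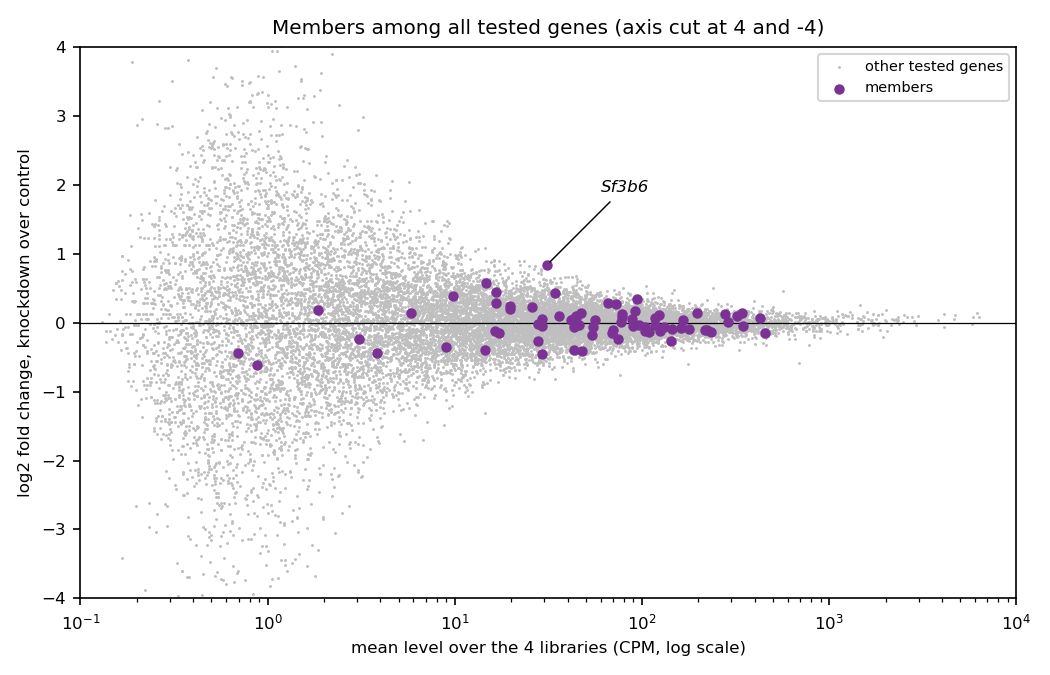
Log2 fold change, knockdown against control, plotted against mean CPM on a log axis, with the members in purple over all other tested genes except Parp12 in grey and the vertical axis ending at -4 and 4. Members lie within the grey cloud at their level, and Sf3b6 has the highest log2 fold change among them, 0.84.

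The branch-site complexes SF3b and SF3a come first, since they are the subject of the question. SF3b is a complex of subunits that clamps the U2 particle onto the branch site. Its small subunit Sf3b6, also called p14, sits close to the branch-point adenosine. The gene lies on the plus strand at chr12:4817544-4827659 (mm10), has 2854 bases of summed exons, and shared no stretch of 50 bases with any other gene and no exon bases with a neighbour. Sf3b6 had 878 and 1023 counts in control and 1492 and 1600 in knockdown libraries, which was 19.4, 25.0, 35.0 and 44.7 CPM in that order. Both knockdown libraries lay above both controls, and within each group replicate 2 was the higher. The means were 22.2 ± 3.94 CPM for control and 39.9 ± 6.82 CPM for knockdown libraries (SD, n = 2), so that the mean under knockdown stood at 179.6% of the control level. Its log2 fold change of 0.84 (SE 0.24, 95% interval 0.32 to 1.36) had an unadjusted p of 0.00396 and an adjusted p of 0.835 in edgeR's quasi-likelihood test. Among the 8432 tested genes at 10 CPM or more, 26 had a log2 fold change at or above that of Sf3b6 and 20 had one at or below its negative.

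The other SF3b subunits had smaller estimates. Sf3b1, the large scaffold subunit that encloses the branch site, had 438.9 and 392.2 CPM in control and 474.7 and 400.4 CPM in knockdown libraries, with a log2 fold change of 0.07 (interval -0.13 to 0.28). Sf3b3, a beta-propeller subunit beside it, had 304.6, 314.7, 346.3 and 313.9 CPM and a log2 fold change of 0.09 (interval -0.09 to 0.27). In both, the control and knockdown values overlapped. Sf3b2, the subunit that binds Sf3b4, had 152.4 and 146.3 CPM in control and 133.0 and 148.8 CPM in knockdown libraries, with a log2 fold change of -0.09 (interval -0.33 to 0.15). Sf3b5, a very small subunit, had 75.04, 98.9, 85.9 and 94.6 CPM and a log2 fold change of 0.05 (interval -0.27 to 0.38). Here too the groups overlapped, and the 2 controls of Sf3b5 were further apart than the 2 knockdowns.

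Sf3b4, an RNA-binding subunit that touches the pre-mRNA upstream of the branch site, was the only other SF3b subunit whose groups did not overlap. Its knockdown libraries lay above its controls, a position that 18.0% of all tested genes shared. It had 24.4 and 23.0 CPM in control and 26.5 and 29.1 CPM in knockdown libraries, with a log2 fold change of 0.22 (interval -0.29 to 0.74). Its counts are uncertain, because 45.3% of the 50-base stretches in its exons also occur in other genes, Gm7935 holding the most. The interval of Sf3b6 began at 0.32, so it overlapped those of Sf3b4 and Sf3b5. It also overlapped that of Phf5a, an SF3b subunit outside the symbol pattern (-0.19 to 0.34). The difference between subunits was not tested. The other 5 SF3b genes in the symbol pattern summed to 995.2 and 975.3 CPM in control and 1066 and 986.8 CPM in knockdown libraries. This sum leaves out Phf5a, described below, and the groups overlapped. The difference between Sf3b6 and the mean of the same 5 genes, in log2 CPM, was -2.74 and -2.41 in control libraries. In knockdown libraries it was -1.98 and -1.63. This gap was 0.77 smaller in size in the knockdowns, which is given as a description only, since Sf3b6 was picked out for being high there.

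Per kilobase of exon, Sf3b6 had a mean of 10.9 CPM per kilobase over the 4 libraries, the lowest of the 6 SF3b genes in the symbol pattern, where Sf3b1 had the highest with 37.5. That place holds in the controls, where Sf3b6 had 6.80 and 8.76 CPM per kilobase and Sf3b4, the next, had 11.3 and 10.7. In knockdown 1 both Sf3b6 and Sf3b4 had 12.3 CPM per kilobase, and in knockdown 2 they had 15.7 and 13.5. Sf3b6 was thus clearly above Sf3b4 in knockdown 2 only, and the counts of Sf3b4 are uncertain because of its shared sequence. The share of Sf3b6 in the summed level per kilobase of the 6 subunits was 5.38% and 6.74% in control and 8.78% and 11.2% in knockdown libraries. Both knockdown shares lay above both control shares, which is a description only, since Sf3b6 was picked out for being high in the knockdowns.

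**Figure D2:**
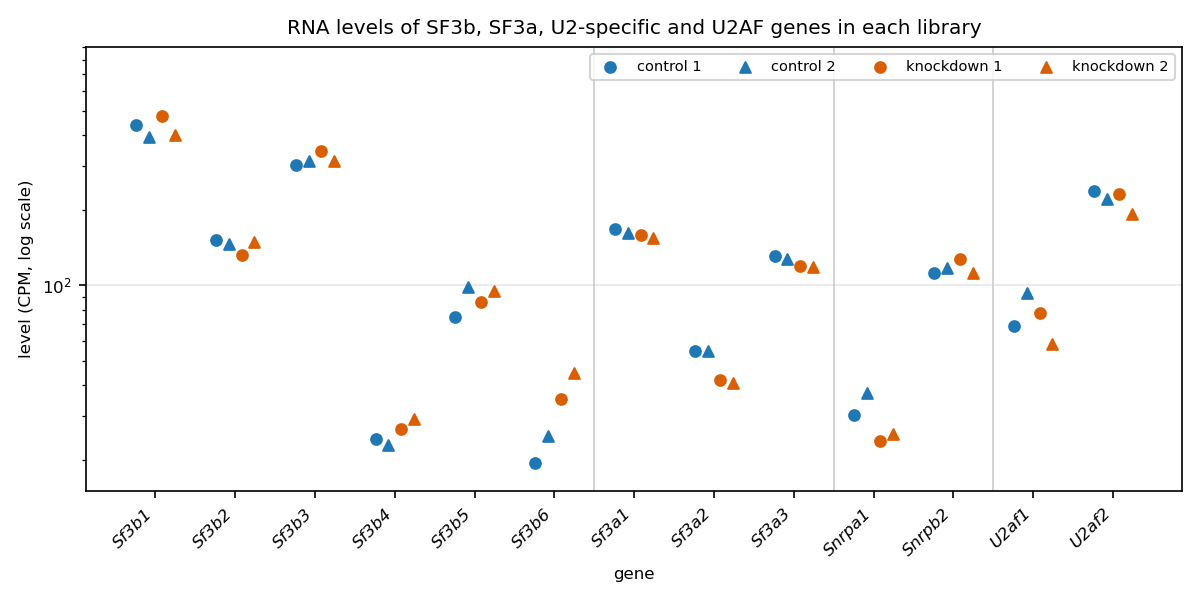
CPM on a log axis in each library for the SF3b, SF3a, U2 and U2AF members, with controls in blue, knockdowns in orange, circles for replicate 1 and triangles for replicate 2. The orange points lie clearly above the blue ones for Sf3b6 (19.4 and 25.0 against 35.0 and 44.7 CPM), below them for Sf3a2 and Snrpa1, and close to them for Sf3b1, Sf3b2, Sf3b3 and Sf3b5.

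The upstream sequences of Sf3b6 and of 2 other subunits are shown so that the starts of these genes can be compared. They come from RefSeq windows on GRCm38.p6 that hold the 250 bases before the start, cut to the stretch outside every exon in the count table. All are written 5′ to 3′ on the gene's strand. Capitals mark matches, on either strand, to the CCAAT box (CCAAT), the GC box (GGGCGG), an ETS core (CCGGAAG), an E-box (CACGTG) or a TATA box (TATAAA). The Sf3b6 stretch is chr12:4817358-4817543 on the plus strand, the Sf3b1 stretch chr1:55027482-55027728 on the minus strand and the Sf3b3 stretch chr8:110846813-110847023 on the minus strand.
Sf3b6: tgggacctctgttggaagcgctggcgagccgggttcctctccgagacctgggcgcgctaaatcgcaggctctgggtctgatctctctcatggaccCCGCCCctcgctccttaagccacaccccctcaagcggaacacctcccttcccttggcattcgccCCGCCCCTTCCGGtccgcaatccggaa
Sf3b1: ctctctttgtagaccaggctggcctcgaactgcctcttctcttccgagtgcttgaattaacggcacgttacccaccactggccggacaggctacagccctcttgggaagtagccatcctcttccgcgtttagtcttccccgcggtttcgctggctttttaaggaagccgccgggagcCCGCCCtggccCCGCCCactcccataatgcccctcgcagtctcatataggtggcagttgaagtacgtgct
Sf3b3: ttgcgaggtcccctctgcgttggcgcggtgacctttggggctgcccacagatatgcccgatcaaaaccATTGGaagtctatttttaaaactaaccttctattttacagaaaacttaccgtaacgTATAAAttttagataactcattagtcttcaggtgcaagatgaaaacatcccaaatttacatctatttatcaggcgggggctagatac
The Sf3b6 stretch of 186 bases held 2 GC boxes and 1 ETS core that follows directly after the second GC box. The Sf3b1 stretch of 247 bases held 2 GC boxes and no ETS core. The Sf3b3 stretch of 211 bases held 1 CCAAT box and 1 TATA box, and the remainder of its window lies in exons of Cog4, on the other strand. In the full windows, which run into these exons, the ETS core was found 2 times for Sf3b6, 1 time for Sf3b3 and 1 time in each of the 2 windows of Sf3b2, so it was not limited to Sf3b6. The Sf3b2 windows, which also held 1 CCAAT box, lie within an exon of another gene and are not printed. Sf3b4 and Sf3b5 had no entry in the table of windows. Over all full windows of 250 bases, the GC box occurred in 66.3% of the 83 windows of 65 members, 52.5% of the 14325 windows of tested genes and 32.7% of all 32851 windows. The ETS core occurred in 28.9% of member windows, 12.1% of windows of tested genes and 6.91% of all. CCAAT was present in 45.8%, 35.2% and 33.9% in the same order, the E-box in 9.64%, 8.04% and 6.02%, and the TATA box in 8.43%, 7.40% and 12.4%. Matches of different motifs overlapped in 3 member windows. A match describes the letters only.

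SF3a, which joins SF3b to the rest of the U2 particle, lay lower in the knockdowns for all 3 of its subunits, with no overlap between the groups in any of them, a position that 16.8% of all tested genes shared. Sf3a2, a zinc-finger subunit, had 54.7 and 54.9 CPM in control and 41.7 and 40.7 CPM in knockdown libraries. Its replicates lay within about 1 CPM of each other while the groups were well apart. Its log2 fold change of -0.41 (SE 0.17, interval -0.79 to -0.04) had an unadjusted p of 0.0337 and an adjusted p of 0.835 in edgeR's quasi-likelihood test. In DESeq2 its adjusted p was 0.0511. Of its exon bases, 16.1% overlap Plekhj1 on the opposite strand, and the use of strand in counting is unstated in the sources used here. Sf3a1, which carries the ubiquitin-like domain of the complex, had 168.0 and 162.7 against 159.5 and 155.3 CPM. Its log2 fold change was -0.07 (interval -0.29 to 0.15). Sf3a3, a zinc-finger subunit like Sf3a2, had 131.4 and 127.9 against 120.0 and 118.8 CPM. Its log2 fold change was -0.12 (interval -0.36 to 0.12). The controls were the higher group in both, by much less than in Sf3a2.

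The proteins that belong to the U2 particle alone, and the factor that precedes it, had no member past the adjusted threshold. Snrpa1, the U2 A′ protein, had 30.2 and 37.0 CPM in control and 23.7 and 25.5 CPM in knockdown libraries, with a log2 fold change of -0.45 (interval -0.95 to 0.05). Its groups did not overlap, but the controls differed from each other by more than the knockdowns did. Snrpb2, the U2 B″ protein that binds the same RNA hairpin with it, had 112.1, 117.0, 127.1 and 112.2 CPM and a log2 fold change of 0.07, with overlapping groups. U2af2, which binds the polypyrimidine tract, had 237.7, 221.5, 232.5 and 193.4 CPM and a log2 fold change of -0.11. U2af1, which reads the AG at the intron's end, had 69.1, 92.9, 77.6 and 58.5 CPM and a log2 fold change of -0.23. The groups of U2af2 and U2af1 overlapped, and U2af1 shares 21.7% of its 50-base stretches with other genes. U2af1l4, a paralog of U2af1, had only 0.730 and 1.42 against 0.681 and 0.698 CPM, lower in both knockdowns, with a log2 fold change of -0.62 (interval -3.06 to 1.83). Of its exon bases, 65.6% overlap Gm49396 on the same strand. All 3 U2AF genes had log2 fold changes below 0, as did 7864 of the 15868 tested genes. The intervals of U2af2 (-0.33 to 0.12) and U2af1 (-0.62 to 0.15) included 0.

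Among splicing genes outside the symbol pattern, the partners of SF3b and U2 had log2 fold changes in both directions. Phf5a, the SF3b subunit that forms the branch-site pocket with Sf3b1, had 99.4 and 111.5 CPM in control and 108.1 and 114.2 CPM in knockdown libraries, with a log2 fold change of 0.07 (interval -0.19 to 0.34). The groups overlapped. Ddx46, the helicase that acts when U2 binds the branch site, had a log2 fold change of -0.09, and the related helicase Ddx42 one of -0.19. Htatsf1, which binds SF3b1 in the free U2 particle, had 50.7 and 58.4 CPM in control and 80.5 and 69.2 CPM in knockdown libraries. Both knockdown libraries lay above both controls, with a log2 fold change of 0.46 (interval 0.12 to 0.81) and an unadjusted p of 0.0123 in edgeR's quasi-likelihood test. Dhx15, the helicase that takes the spliceosome apart, had 78.5 and 72.2 CPM against 52.9 and 65.9 CPM, the knockdowns being lower without overlap. Its log2 fold change was -0.36 (interval -0.71 to -0.01), with an unadjusted p of 0.045 in the same test. Over the 13 SF3b and U2 partners listed, 0 passed the adjusted threshold, where 0.0063% of all tested genes did. Of these partners, 4 had a log2 fold change above 0 and 9 below, with a median of -0.08. Among all tested genes, 8004 lay above 0 and 7864 below.

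The core proteins and the other snRNPs likewise had no member past the adjusted threshold. The 7 Sm core genes, whose products form the ring around the snRNAs, had log2 fold changes from -0.44 to 0.24 and a median of -0.06. Snrpd1, the most abundant of them per kilobase, had 136.3 and 131.0 CPM in control and 128.3 and 128.8 CPM in knockdown libraries. Its groups did not overlap, but the log2 fold change was only -0.06. Snrpb, which encodes SmB, had 17.2, 18.5, 15.2 and 28.0 CPM, with 1 knockdown library below and 1 above the controls and a log2 fold change of 0.24. Snrpf had 23, 44, 15 and 30 counts and cannot be read with confidence, since 85.4% of its exon bases overlap genes on the other strand and 89.5% of its 50-base stretches occur elsewhere. In the U1 particle, Snrnp70, its 70K protein, had a log2 fold change of -0.11. Snrpa, the A protein of U1, had 17.1, 10.6, 14.6 and 24.3 CPM with overlapping groups and a log2 fold change of 0.44 whose interval, -0.33 to 1.21, includes a 2-fold change.

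The 8 tri-snRNP genes had log2 fold changes from -0.14 to 0.29, and 7 of the 8 intervals excluded both a 2-fold and a 1.5-fold change. Of all tested genes at 10 CPM or more, 87.0% excluded a 2-fold and 54.2% a 1.5-fold change. Prpf8, the scaffold of the catalytic core, had 377.5, 328.2, 337.8 and 349.1 CPM and a log2 fold change of -0.04 (interval -0.24 to 0.15). Snrnp200, the helicase that unwinds the U4 and U6 RNAs, had 187.4 and 186.0 CPM in control and 214.2 and 196.5 CPM in knockdown libraries, with a log2 fold change of 0.14 (interval -0.07 to 0.35). Prpf6, which bridges U5 with U4 and U6, had 243.0 and 245.9 against 231.0 and 214.3 CPM and a log2 fold change of -0.13. The groups of Snrnp200 and Prpf6 did not overlap, in opposite directions, while those of Prpf8 did. Prpf4, a U4 and U6 protein, had 10.9, 19.0, 16.8 and 19.5 CPM, a log2 fold change of 0.29 and an interval of -0.43 to 1.01. The 5 activation and catalysis genes, among them the ubiquitin ligase Prpf19 and the late-acting factor Prpf18, had log2 fold changes from -0.03 to 0.18, and all 5 intervals excluded even a 1.5-fold change. In that group Prpf38b, a factor of spliceosome activation, was highest (0.18) and Prpf38a, its relative, had 0.08. All 3 minor spliceosome genes had log2 fold changes below 0, where 7864 of the 15868 tested genes did so. Snrnp48 had -0.02 (interval -0.53 to 0.49). Snrnp35, with a mean of only 3.09 CPM, had -0.24 (interval -1.87 to 1.39). Snrnp25, a protein of the U11 and U12 particle that recognises the rare introns, had 16.6 and 16.5 CPM in control and 13.9 and 11.2 CPM in knockdown libraries, without overlap. Its log2 fold change of -0.39 had an interval of -1.08 to 0.30.

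**Figure D3:**
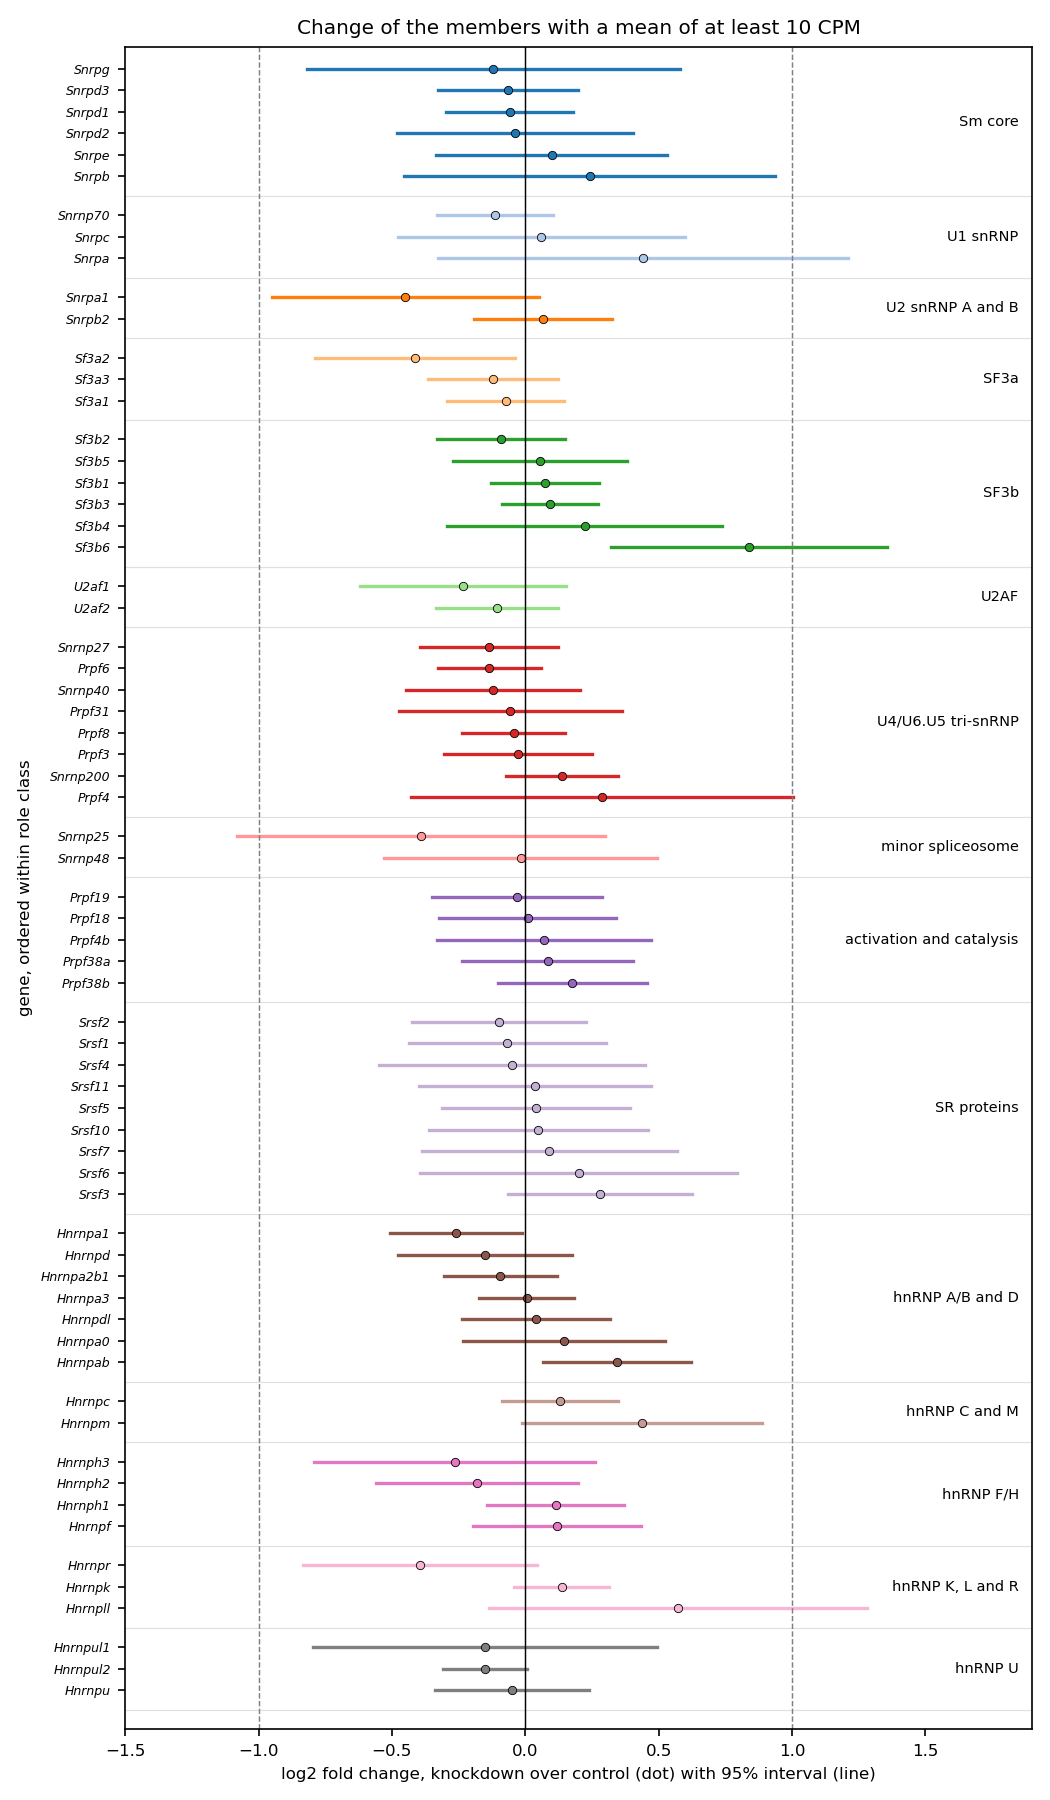
Log2 fold change, knockdown against control, for 65 of the members with a mean of at least 10 CPM, grouped by role, with bars for the 95% interval of edgeR's fit and dashed lines at a 2-fold change. The intervals of 60 of them stay inside the dashed lines, and the interval of Sf3b6, 0.32 to 1.36, crosses the upper one.

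The SR proteins, which bind exonic enhancers and recruit U1 and U2AF, differed little. Of the 11 SR genes, 10 were tested, with log2 fold changes from -0.10 to 0.39 and a median of 0.04. Of the 10 intervals, 9 excluded a 2-fold change, as did 46.7% for all tested genes and 87.0% at 10 CPM or more. Srsf3, the smallest SR protein, had 53.2 and 66.5 CPM in control and 71.7 and 73.3 CPM in knockdown libraries. It was the only SR gene whose groups did not overlap, with a log2 fold change of 0.28 (interval -0.06 to 0.62). Of all tested genes, 18.0% lay above and 16.8% below the controls without overlap. Srsf2, the most abundant per kilobase, had 75.4, 68.7, 71.3 and 63.2 CPM and a log2 fold change of -0.10. Srsf1, the prototype of the family, had 56.6, 55.4, 58.5 and 47.9 CPM and a log2 fold change of -0.07. Both overlapped between groups. Srsf12 had 6 counts in 1 control library and 0 in the other 3 libraries, where 0 counts allow up to 0.0838 CPM in the shallowest library.

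Among the 20 tested hnRNP genes, whose products coat nascent transcripts and often oppose SR proteins, 10 had a log2 fold change above 0 and 10 below, and the median was -0.02. Hnrnpab, an A/B-type protein, had 84.8 and 80.2 CPM in control and 107.2 and 102.6 CPM in knockdown libraries. The groups stood clearly apart, with a log2 fold change of 0.34 (SE 0.13, interval 0.07 to 0.62), an unadjusted p of 0.0186 and an adjusted p of 0.835 in edgeR's quasi-likelihood test. Of its exon bases, 29.1% overlap Phykpl on the opposite strand. Hnrnpa1, the classical repressor of splice sites, had 161.9 and 149.5 CPM in control and 122.5 and 139.2 CPM in knockdown libraries, with a log2 fold change of -0.26 (interval -0.51 to -0.01). Both knockdowns lay below both controls, and 28.2% of its 50-base stretches occur in other genes. Its close relatives Hnrnpa2b1 (-0.09), Hnrnpa3 (0.01) and Hnrnpa0 (0.15) had smaller log2 fold changes.

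The other hnRNP genes varied in both directions. Hnrnpm, which acts in alternative splicing, had 28.9 and 29.3 CPM in control and 41.6 and 37.0 CPM in knockdown libraries, with a log2 fold change of 0.44 (interval -0.01 to 0.89). Hnrnpll, a paralog of hnRNP L known from T cells, had 13.0, 10.6, 19.8 and 15.2 CPM and a log2 fold change of 0.57 (interval -0.14 to 1.282). The knockdown libraries lay above the controls for these genes, with no overlap. Hnrnpr had 54.0 and 44.1 CPM in control and 33.5 and 42.2 CPM in knockdown libraries, with a log2 fold change of -0.39 (interval -0.83 to 0.05). Hnrnpul2, a U-like protein, had 475.1 and 473.6 against 419.5 and 437.2 CPM and a log2 fold change of -0.15 (interval -0.31 to 0.01). These were lower in both knockdowns than in both controls. The abundant Hnrnpc, which binds uridine tracts, had a log2 fold change of 0.13, Hnrnpk, which binds cytidine-rich RNA, one of 0.14, and the G-tract binding pair Hnrnpf and Hnrnph3 had 0.12 and -0.26.

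Some symbols that match the pattern are not ordinary splicing genes. Snrpert, annotated as a processed pseudogene, had 126 and 30 counts in control and 133 and 28 in knockdown libraries, so it was high in replicate 1 of both groups, and 55.7% of its 50-base stretches occur elsewhere, Snrpe holding the most. Snrpe itself, the SmE gene, had 36.1, 49.98, 45.5 and 46.3 CPM and showed no such split. The processed pseudogene Hnrnpa1l2-ps had 0 counts in all 4 libraries and Hnrnpa1l2-ps2 had 1. More widely, 14 members had over 20% of their exon bases overlapped by another gene or over 20% of their 50-base stretches shared, namely Hnrnpa1, Hnrnpa3, Hnrnpab, Hnrnpf, Sf3b4, Snrpa, Snrpert, Snrpf, Srsf2, Srsf4, U2af1, U2af1l4 and the 2 hnRNP pseudogenes. Without them, 62 tested members remained, of which 10 lay above and 12 below the controls without overlap, beside 18.0% and 16.8% of all tested genes, and 0 passed the adjusted threshold.

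Levels per kilobase of exon varied more between members than between groups. Hnrnpc was the most abundant with a mean of 64.6 CPM per kilobase, followed by Snrpd1 with 63.9, Hnrnpul2 with 63.5 and Prpf6 with 60.5. Prpf39, a U1-associated protein in yeast, was the lowest of those tested with 0.489. Sf3b6 ranked 42 among the members. Because the neighbours at the top differed by less than the range of their libraries, their order is not firm. The length used is that of all annotated exons of a gene, not of the mRNA expressed, so ranks per kilobase also depend on the annotation.

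**Figure D4:**
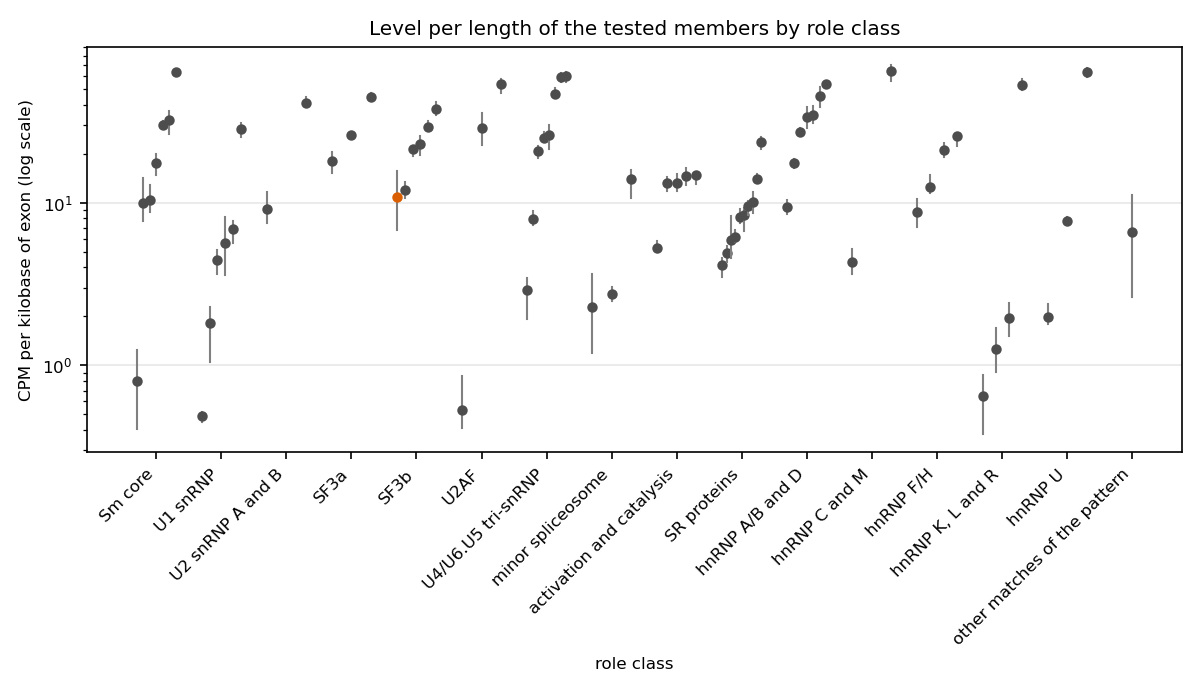
CPM per kilobase of exon on a log axis for the tested members by role, with a dot for the mean and a line from the lowest to the highest of the 4 libraries, and Sf3b6 in orange. The mean of Sf3b6, at 10.9, is the lowest of the SF3b subunits over all 4 libraries, though its line overlaps that of Sf3b4, and Hnrnpc, Snrpd1 and Hnrnpul2 lie near 64 at the top.

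Other splicing genes, listed by complex, were read from the same fit. Of 154 such genes in the table, 145 were tested and 0 passed the adjusted threshold, while 5 were higher and 4 lower at an unadjusted p of 0.05, beside 2.94% and 2.57% of all tested genes. Their median log2 fold change was -0.02, with 64 above 0 and 81 below, beside 8004 and 7864 of all tested genes. In each list the gene with the smallest p is given here. Casc3, a component of the exon junction complex, had 21.6 and 10.8 CPM in control and 30.6 and 30.9 CPM in knockdown libraries, with a log2 fold change of 0.90 (interval 0.24 to 1.56). Cdc5l, a core protein of the Prp19 complex, had only 42 and 56 counts in control and 204 and 104 in knockdown libraries, with a log2 fold change of 1.78 (interval 0.04 to 3.52). Both were higher in both knockdowns than in both controls. Of the 50-base stretches in their exons, 36.6% of those in Cdc5l, 40.8% in Ppih and 22.0% in Luc7l2 occur in other genes, so these counts are uncertain. The U1-linked protein Luc7l2 had a log2 fold change of 0.59, the U6 ring protein Lsm4 0.52 and the splicing regulator Rbm5 0.47. The SMN complex protein Strap and the SR kinase Clk1 each had 0.17. The following had values below 0, with -0.44 for the helicase Dhx16, -0.37 for the minor spliceosome partner Rbm48 and -0.33 for the tri-snRNP cyclophilin Ppih.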

How the data were processed

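Per the labels' protocols, poly(A) RNA was selected from column-purified total RNA and made into Illumina libraries. The table the authors deposited holds raw read counts per gene in 4 libraries, as whole numbers whose totals differ between libraries, with exon coordinates, strand and exon length. The submitters' processing notes give the build mm10 and the tools featureCounts 2.0.0, STAR 2.7.5b, DESeq2 1.28.1 and Trim Galore 0.6.4, without their roles. The strand setting and the treatment of reads with several alignments are unstated in the sources used here. Without them, reads of overlapping or near-identical genes cannot be assigned with certainty. For this reason exon overlap and shared stretches of 50 bases were computed for each member from GENCODE vM21, in which all 77 members had the same coordinates.

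The analysis used edgeR 4.0.16 under R 4.3.3. A gene was tested if it passed filterByExpr (minimum count 10, minimum total 15). This left 15868 of 55453 genes, scaled by TMM factors between 0.991 and 1.01. Groups were compared, two-sided, by glmQLFit (robust, the current rather than the legacy fit) and glmQLFTest on the whole table, with no term but group, and p-values were adjusted by Benjamini-Hochberg over every tested gene. CPM are counts per 1e+06 counts of the library. A count of 0 was read as up to 3 counts. These limits and the intervals cover counting error and the spread of these libraries only. An exact permutation test of 2 libraries against 2 has 6 arrangements and cannot go below 0.333, so no result rests on it. Replicate pairs differed by far more than sampling noise, with a chi-square per degree of freedom of 38.0 in the controls and 32.6 in the knockdowns. The fit was tested on simulated counts.

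The members, the role groups, the lists of other splicing genes, the tests and the rule for named genes were chosen with earlier results of these data known. The rule named every SF3b and SF3a subunit, U2af1 and U2af2, the SF3b partners Phf5a, Ddx46 and Ddx42, and Parp12. In each other role group it named the member with the smallest p and the one with the highest level per kilobase. It also named members with 0 counts, members at 10 CPM or more whose interval includes a 2-fold change, and the gene with the smallest p in each list. Other genes, among them Hnrnpa1, Hnrnpa2b1, Hnrnpa0, Prpf8, Snrnp200, Prpf18, Prpf19, Prpf39, Dhx15, U2af1l4, Srsf1, Srsf12, Snrpe, Snrpf and Hnrnpa1l2-ps2, were named after their values were seen. A gene that the rule selected is left out of the text and of the plot of log2 fold changes by role. Alternatives were other scaling factors, other filters on low counts, DESeq2 1.42.0, limma-voom (limma 3.58.1), a block for the replicate number, leaving out each library, and edgeR's legacy fit, which was chosen after seeing the data.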

Additional observations from a re-analysis of the deposited data

How the results depend on the processing

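Over 13 alternatives the log2 fold change of Sf3b6 stayed between 0.66 and 1.02 and its adjusted p ran from 0.0110 in DESeq2 to 0.994 in edgeR's legacy fit. The count of members past the adjusted threshold was 0 under every alternative but DESeq2, which gave 2, Sf3b6 and Hnrnpab. The count over all genes was 1, and became 8 when genes had to reach 1 CPM in both libraries of 1 group, 312 in DESeq2 and 0 in limma-voom, where the adjusted p of Parp12 was 0.280. Leaving out each library gave 1 to 2. For all of these the cause was not tested. None of the other listed splicing genes passed the threshold under any of the alternatives.

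Over the tested genes, the deviations of same-numbered libraries had a correlation of 0.00103. This value cannot show whether the libraries were collected as pairs, which the labels leave unstated. With the number as a block, 0 members passed the adjusted threshold.

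Of 662 values for 51 named genes, 644 kept their direction and their side of the threshold. The log2 fold change of 12 genes turned its sign when 1 library was left out, which was the only alternative that did so. Its range was -0.19 to 0.0166 for Ddx46, -0.0286 to 0.0402 for Hnrnpa3, -0.00218 to 0.28 for Hnrnpc, -0.00146 to 0.25 for Hnrnpf, -0.0468 to 0.24 for Prpf38a and -0.0593 to 0.71 for Prpf4. It was -0.0553 to 0.19 for Sf3b1, -0.12 to 0.25 for Sf3b5, -0.23 to 0.65 for Snrpb, -0.0289 to 0.15 for Snrpb2, -1.21 to 1.49 for Snrpert and -0.25 to 0.0146 for U2af2. Where 1 library of a group remained, its spread was taken to be that of the other group. With 2 libraries a group, the 8 tested members under 10 CPM could not be bounded within a 2-fold change.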
